A study of Hemigymnus melapterus and Thalassoma lunare and Coris batuensis with 46 samples.

Results

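Thalassoma lunare, the moon wrasse, which the labels call a facultative cleaner, was compared with Coris batuensis, which they call a non-cleaner, in 1 section of the female forebrain read by 3′ tag sequencing. The libraries were chosen by their labels, and the library labelled Thalassoma lunare 4 was left out because its counts match those of another species of the series, Halichoeres melanurus. Across the tested features its log2 CPM correlated at 0.949 (ENSONIT) and 0.964 (Ldim_g) with the mean of Halichoeres, and at 0.696 and 0.776 with that of the other Thalassoma libraries, where features are not independent replicates. This left 18 of the 46 libraries of the series, 9 of Thalassoma (samples 1, 2, 3 and 5 to 10) and 9 of Coris (samples 1 to 6 and 8 to 10). All fish were female, and the labels give no treatment, age or place that would set the species apart. Heads were held in RNAlater, 6 to 28 minutes passed between capture and death, and the second slice of the brain counted from the front, 300 µm thick, was taken from each frozen head. Each status is held by 1 species here, so cleaning and every other difference between the species cannot be told apart, and p-values measure only the spread between these samples.

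A facultative cleaner is a fish that picks parasites off other fish during part of its life or for part of its food, whereas a non-cleaner does not. The slice held the pallial areas Dl and Dm, which are regarded as the fish counterparts of the hippocampus and of the basolateral amygdala, with parts of the septum and striatum. These areas serve spatial and emotional memory and reward in vertebrates. In a slice of mixed cells, fewer cells of a type and less RNA per cell cannot be told apart. Reads in 3′ tag sequencing come from the poly(A) end of transcripts, so that counts follow molecules more than length.

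Each library had been counted on 2 sets of sequences, 1 with identifiers that begin with ENSONIT (transcripts) and 1 with identifiers that begin with Ldim_g (genes). Neither set comes with gene names, so no function is given for a transcript, the forebrain label could not be checked against marker genes, and only the first 2 identifiers in each direction are printed. No line joins an ENSONIT transcript to a Ldim_g gene, and the 2 sets were made from the same reads, so they are 2 readings of the same fish and not independent of each other.

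Thalassoma libraries were deeper than Coris libraries. Reads in all ran from 759231 to 1072478 in Thalassoma, with a median of 924388, and from 287241 to 704062 in Coris, with a median of 617206. No Coris library reached the shallowest Thalassoma library. The difference of the means was 338254 reads (two-sided exact permutation test over the 18 libraries, p = 4.11e-05, the smallest these libraries can give, Benjamini-Hochberg adjusted p = 0.000206 over 15 library measures). Counts on ENSONIT transcripts were 43303 ± 5009 (SD, n = 9) in Thalassoma against 29918 ± 6161 (SD, n = 9) in Coris, also without overlap. At a common depth of 14800 counts a Thalassoma library held 5090 ± 122 (SD, n = 9) transcripts with a count and a Coris library 4980 ± 136 (SD, n = 9), a difference of 109.7 that did not pass (exact permutation, adjusted p = 0.107). Without Thalassoma 8 the difference was 138 and passed (exact permutation, adjusted p = 0.0345). In the Ldim_g set, at 14927 counts, 3205 ± 103 (SD, n = 9) genes had a count in Thalassoma and 3007 ± 70.4 (SD, n = 9) in Coris. That difference of 198 passed over all 18 libraries (exact permutation, adjusted p = 0.000823).

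The share of reads placed on the second reference also differed. In Thalassoma 61.1% ± 1.39 (SD, n = 9) of reads were not aligned and in Coris 58.1% ± 0.594 (SD, n = 9), a difference of 3.01 percentage points (exact permutation, adjusted p = 0.000309). In Ldim_g genes 4.11% ± 0.272 (SD, n = 9) and 4.66% ± 0.306 (SD, n = 9) of reads were counted, so Thalassoma lay 0.550 percentage points lower (exact permutation, adjusted p = 0.00136). Counts on ENSONIT transcripts per 100 reads were 4.71 ± 0.169 (SD, n = 9) in Thalassoma against 5.16 ± 0.209 (SD, n = 9) in Coris (exact permutation, adjusted p = 0.000441). Thalassoma was thus deeper in reads but had a smaller share of them assigned in both sets. The part of depth and of alignment in the differences between single transcripts was not tested beyond the thinned counts given with them.

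**Figure D1:**
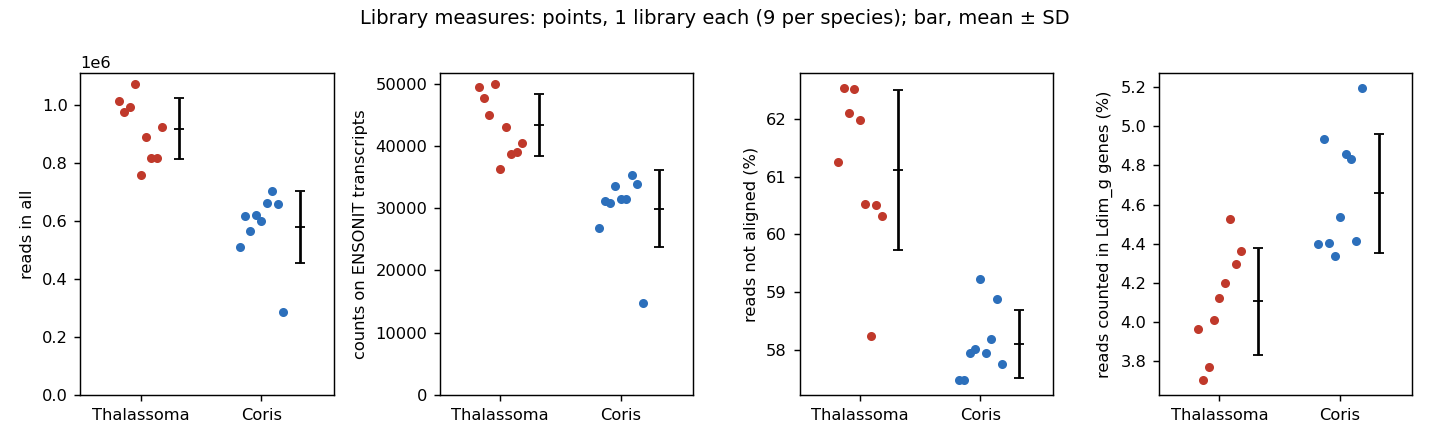
Reads in all, counts on ENSONIT transcripts, the percentage of reads not aligned and the percentage counted in Ldim_g genes in 9 Thalassoma and 9 Coris libraries, with points for single libraries (their order across has no meaning) and bars for the mean ± SD. The panels of reads and of ENSONIT counts start at 0 and show no overlap between the species, while the 2 panels in percent do not start at 0 and overlap.

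Of 487 ENSONIT transcripts with enough counts to be tested, 272 (55.9%) differed between the species in edgeR's quasi-likelihood test (Benjamini-Hochberg adjusted p under 0.05). In Thalassoma 138 were higher (28.3%) and 134 were lower (27.5%). Among the 462 Ldim_g genes tested, 308 (66.7%) differed, 160 higher (34.6%) and 148 lower (32%). Both directions held similar numbers, although with upper quartile scaling 160 transcripts were higher and 113 lower, and 191 and 128 genes. The median log2 fold change over all features tested was 0.04 in the ENSONIT set and -0.02 in the Ldim_g set. This balance depends on the scaling, since upper quartile scaling shifted the log2 fold changes by 0.09 and 0.18 at the median. With Thalassoma 4 kept as labelled, 128 transcripts were higher and 122 lower of 499 tested, and 160 and 150 of 491 genes.

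Most called ENSONIT differences were smaller than a doubling. Called ENSONIT transcripts had a median log2 fold change of 0.75 where higher and -0.79 where lower, and the middle of the distribution of absolute log2 fold changes, between its quartiles, ran from 0.56 to 1.38. At least a doubling, an absolute log2 fold change of 1, was reached by 46 higher (9.45% of those tested) and 51 lower transcripts (10.5%). At an absolute log2 fold change of 2 there were 23 higher (4.72%) and 26 lower (5.34%). Among Ldim_g genes the medians were 0.89 and -1.02. There 66 of the 160 called higher genes (14.3% of those tested) and 79 of the 148 called lower genes (17.1%) reached 1. At 2 there were 17 (3.68%) and 27 (5.84%). The higher transcripts together took 38.5% of the tested counts in Thalassoma and 21.1% in Coris, and the lower ones 24.4% and 43.1%, values that describe the calls and do not test them.

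The features tested were not all present in both species at a level that could be read. The filter asked for 279 CPM (counts scaled to 1000000 ENSONIT counts per library, here equal to 10 counts in the median library) in at least 9 of the 18 libraries. Of the 487 transcripts, 234 met it in all 9 libraries of each species, 81 in all libraries of Thalassoma alone, 48 in all of Coris alone and 124 only across libraries of both species. A transcript that entered through 1 species had to be high there, so its call supports nothing by itself. Of the 234 that were well measured in each species, 134 (57.3%) were called, 61 higher and 73 lower, and their log2 fold changes reached from -2.78 to 3.53. Of the 220 Ldim_g genes of this kind 61.8% were called, 71 higher and 65 lower, with extremes of -2.48 and 3.50. All features named below by identifier lie beyond these extremes and met the filter only through the species where they were high. Their p-values therefore support nothing by themselves.

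Transcripts at higher levels were more often called, and their errors were smaller. With the transcripts split by level into 3 groups, 49.1% of the lowest, 53.7% of the middle and 64.8% of the highest group were called, where the median standard error of the log2 fold change was 0.23, 0.19 and 0.14. The median absolute log2 fold change went the other way, from 0.51 to 0.48 and 0.44. Shares in the Ldim_g set were 65.6%, 64.3% and 70.1%, with standard errors of 0.24, 0.19 and 0.12.

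**Figure D2:**
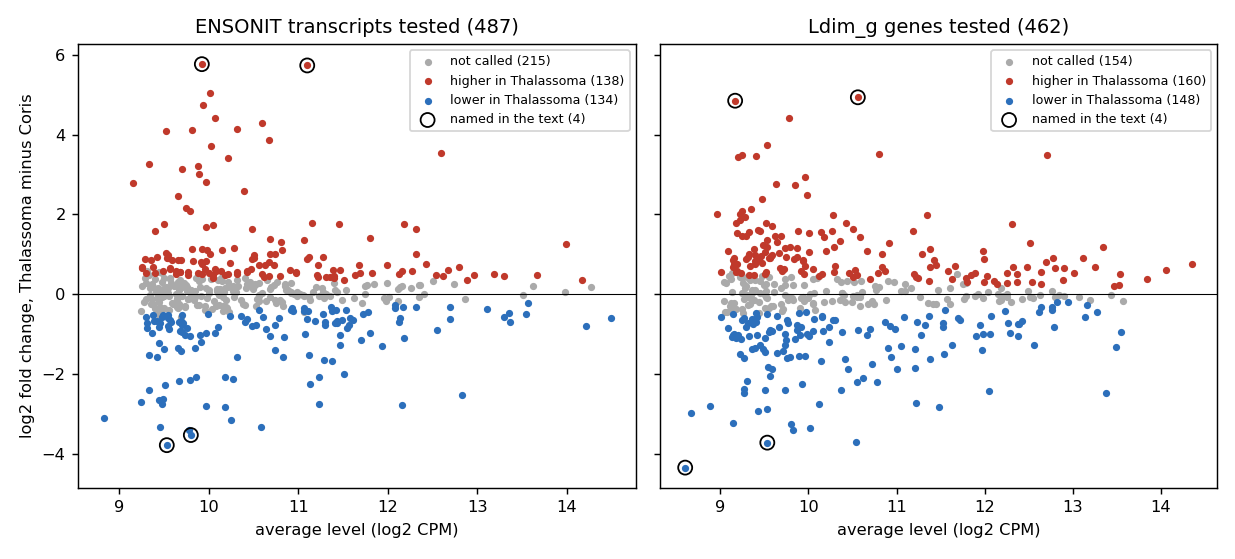
Log2 fold change of Thalassoma minus Coris (vertical) against the average level in log2 CPM (horizontal) for the 487 ENSONIT transcripts and the 462 Ldim_g genes tested. Coloured points passed an adjusted p of 0.05 and circles mark the 4 named features of each set. Under the TMM scaling used, the cloud is balanced around 0, with the longest reach upward at 5.77 in the ENSONIT set and downward at -4.35 in the Ldim_g set.

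The largest rise was that of ENSONIT00000018093.1. Its level, in CPM over the tested transcripts, ran from 943 to 1838 CPM in the 9 Thalassoma libraries, with a median of 1444, which stood for 22 to 50 counts. In the 9 Coris libraries it ran from 0 to 112 CPM with a median of 0, and 7 of these libraries had no count. The groups were far apart, with 312 counts in Thalassoma and 3 in Coris over all libraries. The ratio of these counts, scaled for depth, was 71.0 with a 95% interval of 24.1 to 346 that covers counting error only. This transcript met the filter through Thalassoma alone, so the p-value of its call supports nothing by itself. The fitted log2 fold change was 5.77 (edgeR, SE 0.37, adjusted p = 3.11e-16), a size that depends on the prior count because Coris had so few counts. Leaving out 1 library at a time gave 5.58 to 6.68, with the highest value without Coris 4.

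This transcript did not follow cleaning in the other species. Labrichthys unilineatus, the second non-cleaner of the series, had 971 to 2406 CPM (median 1416, n = 8), near Thalassoma. The cleaner Halichoeres melanurus had 0 to 182 CPM (median 27.7, n = 8 without its sample 2) and the cleaner Hemigymnus melapterus 0 to 69.8 CPM (median 0, n = 9 without its sample 4). Its counts were thus high in 1 cleaner and 1 non-cleaner and near 0 in the other 3 species. The library labelled Thalassoma lunare 4 had 0 counts of it. The same 2 sets of sequences served every species, and a transcript that differs more from them can lose reads. A count near 0 here, and in the features named below, cannot be told apart from such a loss, which was not tested.

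ENSONIT00000009162.1 was the second largest rise. It had 3084 to 4741 CPM in Thalassoma (median 3619) and 0 to 139 CPM in Coris (median 62.6), or 773 against 9 counts. Every Thalassoma library held at least 62 counts and no Coris library more than 2. The log2 fold change was 5.74 (edgeR, SE 0.25, adjusted p = 5.27e-21). The other 3 species stayed low, with medians of 80.2 CPM in Halichoeres, 85.3 CPM in Hemigymnus and 170 CPM in Labrichthys, and the highest single library among them had 388 CPM.

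Of the next 10 rises by rank, with log2 fold changes from 3.53 to 5.03, the first had 15 to 50 counts in each Thalassoma library and 6 counts in all of Coris. The last of these, the twelfth by rank, was the most abundant of the 12, at 10743 ± 2621 CPM (SD, n = 9) in Thalassoma against 983 ± 467 CPM (SD, n = 9) in Coris, and the only one among the 12 without an empty Coris library. It had 2174 counts against 128, an 11.6-fold ratio with a counting interval of 9.70 to 14.0, and is the largest rise among transcripts well measured in each species (log2 fold change 3.53, edgeR, SE 0.18, adjusted p = 2.99e-19). Its level was at least 7326 CPM in every Thalassoma library and at most 2086 CPM in Coris. The ninth had 1072 ± 215 CPM (SD, n = 9) in Thalassoma against 52.9 ± 57.9 CPM (SD, n = 9) in Coris. It was the only one of the 12 for which Halichoeres and Hemigymnus lay nearer to Thalassoma and Labrichthys nearer to Coris on the log2 scale. For 9 of the 12 all 3 other species lay nearer to Coris, and for the first and the twelfth Labrichthys alone lay nearer to Thalassoma.

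The largest falls were smaller than the largest rises. ENSONIT00000011513.1 had 0 to 229 CPM in Thalassoma (median 110) and 749 to 1946 CPM in Coris (median 1433), from 19 and 190 counts. No Thalassoma library came near the lowest Coris library, and 3 Thalassoma libraries had no count. Its log2 fold change was -3.79 (edgeR, SE 0.31, adjusted p = 2.14e-13). It was low in every other species too, with medians of 0 CPM in Halichoeres and in Hemigymnus and 52.8 CPM in Labrichthys, where the highest library had 280 CPM, so among the 5 species its high level was found in Coris.

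ENSONIT00000015336.1 had 0 to 300.1 CPM in Thalassoma (median 155) and 894 to 2642 CPM in Coris (median 1807), from 28 and 229 counts. The log2 fold change was -3.54 (edgeR, SE 0.28, adjusted p = 6.46e-14), again with no overlap between the groups. By their medians the other species formed a gradient between Thalassoma and Coris, although the Hemigymnus median lay above the lowest Coris library at 894 CPM. Median levels were 286 CPM in Halichoeres, 593 CPM in Labrichthys and 941 CPM in Hemigymnus, and the lowest Hemigymnus library, at 790 CPM, lay above the highest Thalassoma library.

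Among the next 10 falls the log2 fold change ran from -3.40 to -2.76. The tenth by rank was the largest fall of a transcript well measured in each species, at 1193 ± 211 CPM (SD, n = 9) in Thalassoma against 8429 ± 2738 CPM (SD, n = 9) in Coris, from 246 and 1118 counts (log2 fold change -2.78, edgeR, SE 0.15, adjusted p = 3.61e-18). Over all 12 falls the other species were less one-sided than over the 12 rises. For 4 of them all 3 other species lay nearer to Thalassoma, for 2 all 3 lay nearer to Coris, for 4 Halichoeres alone lay nearer to Thalassoma and for 2 Halichoeres alone lay nearer to Coris. In the Ldim_g set, all 3 lay nearer to Coris for 3 of the 12 rises and 6 of the 12 falls, and nearer to Thalassoma for 1 and 4. The one-sidedness of the ENSONIT rises thus did not recur there. Most features in these lists were not well measured in each species, so the contrast of rises and falls supports nothing by itself.

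The Ldim_g genes gave the same kind of picture with other identifiers. Ldim_g10184 had 1190 to 4145 CPM in Thalassoma (median 2601) and 0 to 159 CPM in Coris (median 91.6), or 578 against 13 counts. Its log2 fold change was 4.94 (edgeR, SE 0.31, adjusted p = 1.27e-15). Here the other species went with their labels by their medians, with 1817 CPM in Hemigymnus, 842 CPM in Halichoeres and 385 CPM in Labrichthys, although the highest Labrichthys library, at 990 CPM, lay within the range of the cleaner Halichoeres (471 to 1273 CPM). The lowest Labrichthys library, at 85.1 CPM, lay below the highest of Coris at 159 CPM.

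Ldim_g16990 had 555 to 1290 CPM in Thalassoma (median 858) and 0 to 107 CPM in Coris (median 0), from 193 and 4 counts, with a log2 fold change of 4.85 (edgeR, SE 0.40, adjusted p = 6.42e-13). Without Coris 5 it was 5.45. No library of Coris had more than 2 counts. Hemigymnus ran from 279 to 587 CPM, above every Coris library, and its highest library passed the lowest of Thalassoma at 555 CPM. Halichoeres (0 to 36.7 CPM) and Labrichthys (0 to 125 CPM) were near 0. The 2 cleaner species Hemigymnus and Halichoeres therefore did not overlap for this gene.

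The largest fall among the genes was that of Ldim_g22977, with 0 to 75.9 CPM in Thalassoma (median 0) and 436 to 1013 CPM in Coris (median 519). Over all libraries there were 6 counts against 109, and 5 of the 9 Thalassoma libraries had none. The log2 fold change was -4.35 (edgeR, SE 0.39, adjusted p = 6.57e-12). Hemigymnus, a cleaner, was at the level of Coris, with a median of 717 CPM, whereas Halichoeres had a median of 66.9 CPM and Labrichthys of 165 CPM.

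Ldim_g23749 had 0 to 278 CPM in Thalassoma (median 81.7) and 908 to 2163 CPM in Coris (median 1257), from 22 and 225 counts, with a log2 fold change of -3.73 (edgeR, SE 0.29, adjusted p = 1.60e-13). Thalassoma was the low species of the 5, since the medians were 755 CPM in Halichoeres, 1162 CPM in Hemigymnus and 537 CPM in Labrichthys, and the lowest library of those 3 species had 305 CPM.

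**Figure D3:**
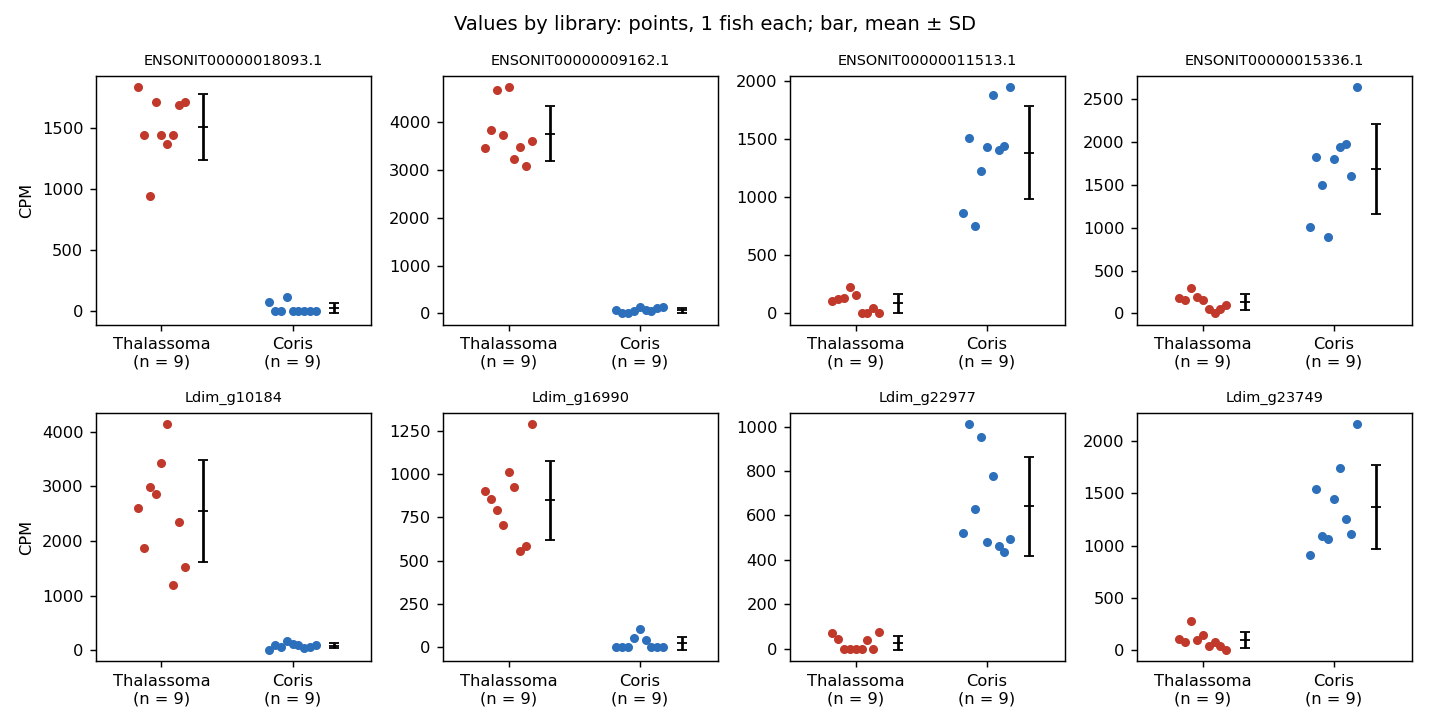
CPM over the tested features in each of 9 Thalassoma and 9 Coris libraries for the 2 largest rises and the 2 largest falls of each set (ENSONIT above, Ldim_g below), 1 point per fish, with the mean ± SD as a bar. In all 8 panels the lowest library of the high species lies above the highest library of the low species, as at 943 against 112 CPM in the first panel.

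Among the next 10 Ldim_g rises (log2 fold change 2.74 to 4.41), the seventh by rank was the most abundant, at 11752 ± 2032 CPM (SD, n = 9) in Thalassoma against 1050 ± 357 CPM (SD, n = 9) in Coris, with 2671 and 173 counts (log2 fold change 3.50, edgeR, SE 0.15, adjusted p = 5.02e-21). Its counts gave an 11.4-fold ratio with a counting interval of 9.74 to 13.3. The tenth rise was the most uneven among Thalassoma fish, at 542 to 3221 CPM, and its highest Coris library had 389 CPM. The next 10 falls ran from -3.71 to -2.75. The tenth by rank was at 712 ± 205 CPM (SD, n = 9) in Thalassoma against 5144 ± 1441 CPM (SD, n = 9) in Coris.

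Libraries of the 2 species did not overlap at all for 103 ENSONIT transcripts (21.1% of those tested), 50 with Thalassoma above Coris (10.3%) and 53 with Thalassoma below (10.9%). All 103 were also called by edgeR in the same direction, which is no second support because both readings use the same libraries and counts. In the Ldim_g set the libraries did not overlap for 130 genes (28.1%), 58 above (12.6%) and 72 below (15.6%). Included in these counts are features that met the filter through Thalassoma alone or Coris alone, and so had to be high there. For such a feature a lack of overlap supports nothing by itself. The counts without overlap were not repeated over features well measured in each species. Adding the library labelled Thalassoma 4, whose counts match those of Halichoeres, undid part of these separations. With it kept, 20 of the 50 transcripts and 29 of the 58 genes were still wholly above, and 41 of the 53 and 51 of the 72 wholly below. This does not show how far a single fish of Thalassoma could undo them.

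The most abundant features also differed between the species. Of the 20 ENSONIT transcripts with the highest mean level, 7 were higher and 9 lower in Thalassoma, and of the 20 highest Ldim_g genes 10 were higher and 6 lower, which is read against the 55.9% and 66.7% called among all features tested. Their median absolute log2 fold change was 0.47 for transcripts and 0.52 for genes, beside 0.47 and 0.63 over all features tested. The second most abundant transcript had 20841 ± 6499 CPM (SD, n = 9) in Thalassoma against 18429 ± 4474 CPM (SD, n = 9) in Coris and did not pass (log2 fold change 0.18, edgeR, SE 0.14, adjusted p = 0.284). The sixth had 22572 ± 1966 CPM (SD, n = 9) against 9445 ± 1028 CPM (SD, n = 9), a log2 fold change of 1.26 (edgeR, SE 0.09, adjusted p = 1.15e-14). The largest change among these 20 was in the nineteenth, which was lower in Thalassoma at 2180 ± 398 CPM (SD, n = 9) than in Coris at 12777 ± 2440 CPM (SD, n = 9), with a log2 fold change of -2.54. Among the genes the eleventh was the largest, with 3254 ± 479 CPM (SD, n = 9) in Thalassoma against 18238 ± 1441 CPM (SD, n = 9) in Coris and a log2 fold change of -2.48 (edgeR, SE 0.08, adjusted p = 7.51e-24).

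For 215 ENSONIT transcripts no difference passed the threshold. Their 95% intervals show how far a difference could still go. For 88 of them the interval of the log2 fold change lay within 0.5 either way of no change, and for 209 within 1, while for 6 it reached past 1. Of the 154 Ldim_g genes that did not pass, 67 had an interval within 0.5 and 152 within 1.

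At equal depth fewer features passed. With all 18 libraries thinned to 14800 ENSONIT counts and the same 487 transcripts tested, 96 were higher and 103 lower, and 199 of the 272 calls were made again, none in the opposite direction. Without Coris 10, the shallowest library, and with the others thinned to 26789 counts, 121 were higher and 128 lower, and 238 of the 272 were made again. In the Ldim_g set 266 of the 308 calls were made again at 14927 counts, and 287 without Coris 10 at 22508 counts, in each case with none reversed.

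Whether the differences between this cleaner and this non-cleaner recur between others was read in libraries that neither species shares, those of Hemigymnus (cleaner, 9 libraries without its shallow sample 4) and Labrichthys (non-cleaner, 8 libraries). There 89 of 450 ENSONIT transcripts were higher (19.8%) and 104 lower (23.1%) in the cleaner. Among 386 transcripts tested in both comparisons, 99 were higher in Thalassoma than in Coris, and 17 of these (17.2%) were also higher in Hemigymnus than in Labrichthys, beside 16.6% of all 386. Lower in Thalassoma were 115, of which 27 (23.5%) were also lower in Hemigymnus, beside 22.0% of all. At this threshold these same-direction shares among the Thalassoma calls were within 2 percentage points of those among all transcripts.

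Calls in both comparisons went either way. In all, 44 transcripts moved the same way in both and 52 in opposite ways. Of the 99 rises 25 (25.3%) were lower in Hemigymnus than in Labrichthys, beside 22.0% of all 386. Of the 115 falls 27 (23.5%) were higher in Hemigymnus, beside 16.6% of all. The 17 shared rises were 26.6% of the 64 rises of Hemigymnus over Labrichthys among these transcripts, and the 27 shared falls were 31.8% of 85. Where both log2 fold changes were 1 or more in size, 6 transcripts went the same way and 7 opposite ways. Of 23 rises of that size 5 (21.7%) were shared, beside 6.48% of all 386, and of 40 falls 1 (2.5%), beside 6.22%, so the shares departed from the background in both directions on few transcripts. Opposite were 4 of these rises (17.4%), beside 6.22% of all, and 3 of these falls (7.5%), beside 6.48%. In the Ldim_g set 371 genes were tested in both. The second comparison called 29.3% of its 491 genes higher and 31% lower. The same direction was found for 62 and the opposite for 82, and 33 of 122 rises (27.0%) and 29 of 120 falls (24.2%) were shared, beside 30.2% higher and 27.2% lower among all 371. Opposite were 38 of the rises (31.1%) and 44 of the falls (36.7%), beside 27.2% lower and 30.2% higher among all. With both changes at 1 or more in size, 10 genes went the same way and 19 opposite ways, and 4 of 42 rises (9.52%) and 6 of 62 falls (9.68%) were shared, beside 10.5% and 9.97% of all. Opposite were 7 of these rises (16.7%), beside 9.97%, and 12 of these falls (19.4%), beside 10.5%. None of these shares was tested.

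With Halichoeres (8 libraries without its sample 2) in place of Hemigymnus, again against Labrichthys, 52 ENSONIT transcripts went the same way and 44 the opposite way of 402 tested in both. Of 102 rises 25 (24.5%) were shared, beside 18.9% of all, and of 114 falls 27 (23.7%), beside 18.7%. Opposite were 20 of the rises (19.6%), beside 18.7%, and 24 of the falls (21.1%), beside 18.9%. In this comparison 19.3% of 461 transcripts were higher and 21.3% lower in the cleaner. For 394 Ldim_g genes the counts were 73 the same way and 68 opposite, where 26.4% of 534 genes were higher and 30.3% lower in the cleaner. Shared were 41 of 130 rises (31.5%), beside 29.4% of all 394, and 32 of 123 falls (26.0%), beside 24.9%. Opposite were 33 of the rises (25.4%), beside 24.9%, and 35 of the falls (28.5%), beside 29.4%. These comparisons share the Labrichthys libraries with each other and none with Thalassoma or Coris.

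Each called feature was also placed by where the other species lay, nearer to the mean of Thalassoma or to that of Coris on the scale of log2 CPM (prior count 2). Of the 272 ENSONIT transcripts, 109 (40.1%) lay nearer to Thalassoma in Halichoeres, 97 (35.7%) in Hemigymnus and 105 (38.6%) in the non-cleaner Labrichthys. Of the 308 Ldim_g genes it was 152 (49.4%), 118 (38.3%) and 142 (46.1%). The non-cleaner Labrichthys thus stood between the 2 other cleaners in this share. With Halichoeres 2 and Hemigymnus 4 kept, it stood lowest in the ENSONIT set (42.6%, 40.1% and 39.3%) and between them in the Ldim_g set (52.9%, 36.4% and 45.8%). Halichoeres 2 had been left out because its counts match those of Thalassoma. Hemigymnus 4 had been left out because it was shallow, with 6936 ENSONIT counts. The order with both kept therefore rests in part on a library that does not match its label. Over the called features well measured in each species the shares were 38.1%, 35.8% and 38.1% of 134 transcripts, and 50.7%, 37.5% and 47.1% of 136 genes. These features were chosen for the difference between Thalassoma and Coris, and the positions of the other species played no part in that choice.

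**Figure D4:**
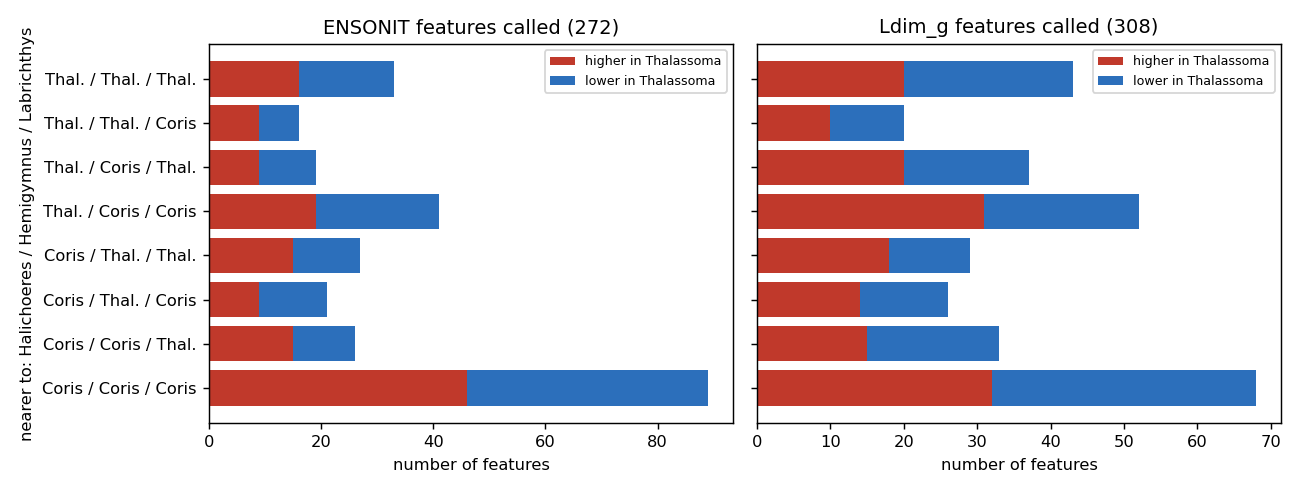
Number of called features (horizontal) by the species, Thalassoma or Coris, to which Halichoeres, Hemigymnus and Labrichthys lay nearer (vertical, in that order), for the ENSONIT and Ldim_g sets, with rises in red and falls in blue. The longest bars, 89 and 68, are those where all 3 lay nearer to Coris, and the shortest, 16 and 20, those that follow the cleaning labels.

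Joining the 3 species gave 8 possible patterns. The pattern that follows the cleaning labels, Halichoeres and Hemigymnus nearer to Thalassoma and Labrichthys nearer to Coris, was held by 16 ENSONIT transcripts (5.88%), 9 of them higher and 7 lower in Thalassoma, and by 20 Ldim_g genes (6.49%), 10 and 10. Its mirror image, Labrichthys nearer to Thalassoma and both cleaners nearer to Coris, was held by 26 (9.56%) and 33 (10.7%). All 3 species lay nearer to Coris for 89 transcripts (32.7%) and 68 genes (22.1%), and nearer to Thalassoma for 33 (12.1%) and 43 (14%). The pattern that follows the labels had the fewest features of the 8 in both sets, a count that was not tested. Over the features well measured in each species it was held by 6 of 134 transcripts, again the fewest, and by 9 of 136 genes, as many as the pattern with Hemigymnus alone nearer to Thalassoma. Each of the 3 species lay nearer to Thalassoma for only 35.7% to 40.1% of the called transcripts and 38.3% to 49.4% of the genes. Such shares alone tend to make a pattern with 2 species on the Thalassoma side rarer than its mirror image. The counts of the patterns were not tested against these shares, so they give no result about cleaning. Among transcripts whose log2 fold change was 2 or more in size, 15 of 23 rises and 11 of 26 falls had all 3 species nearer to Coris, and 2 rises and 0 falls followed the labels. Among Ldim_g genes of that size it was 5 of 17 rises and 12 of 27 falls. There 2 rises and 2 falls followed the labels, and the larger share among rises was not seen. Beyond log2 fold changes of -2.78 and 3.53 for transcripts, and -2.48 and 3.50 for genes, no feature was well measured in each species. These counts by size were not repeated over well measured features, so the contrast of rises and falls supports nothing by itself.

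The same could be read for whole libraries. On an axis through all 272 called transcripts, with the Coris mean at 0% and the Thalassoma mean at 100%, Hemigymnus libraries lay at 21.4% to 34.5% (median 27.9%), Halichoeres libraries at 26.5% to 43.7% (median 32.1%) and Labrichthys libraries at 25.8% to 48.1% (median 39.2%). All 25 libraries of these species lay on the Coris side of the middle. This axis holds transcripts that entered the test through 1 species alone, and over the 134 called transcripts well measured in each species 21 of the 25 libraries did, with medians of 32.7% in Hemigymnus, 32.9% in Halichoeres and 43.4% in Labrichthys. On the axis of the 308 genes 20 of the 25 lay on the Coris side, and 23 over the 136 genes well measured in each species. The medians over the 308 genes were 42.9% in Hemigymnus, 40.1% in Halichoeres and 47.9% in Labrichthys, and the ranges of the 3 species overlapped in both sets. Thalassoma 4 as labelled, which took no part in the axis, lay at 33.9% on the ENSONIT axis and 42.1% on the Ldim_g axis. Both values were within the ranges of Halichoeres and of Hemigymnus, and the first also within that of Labrichthys. On the Ldim_g axis every Halichoeres library but sample 1 lay lower. The position thus sets Thalassoma 4 apart from the other Thalassoma libraries but does not single out 1 species.

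**Figure D5:**
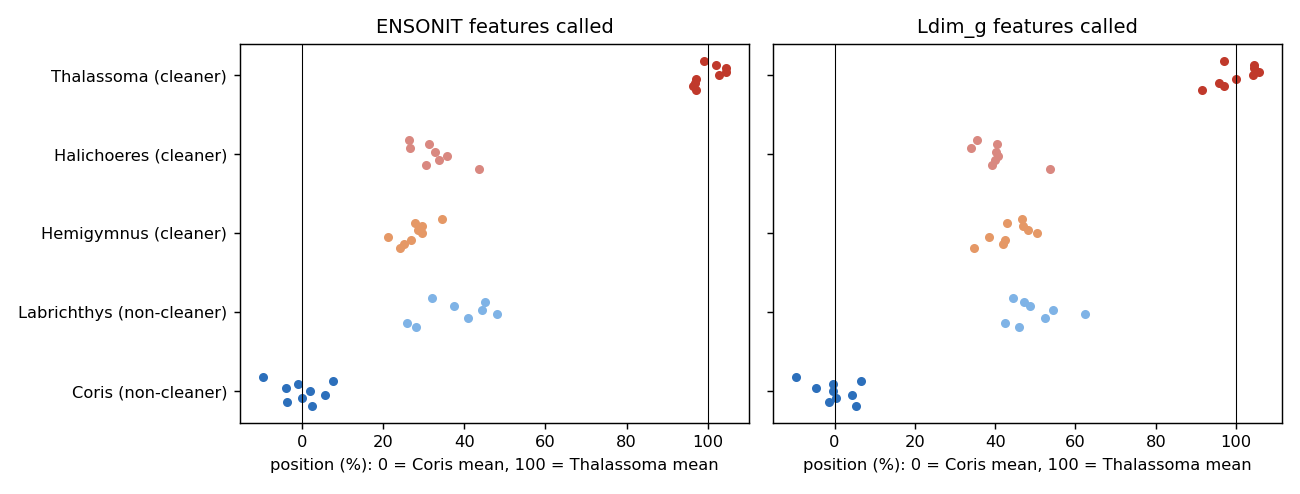
Position of each library (horizontal, in percent, 0 for the Coris mean and 100 for the Thalassoma mean) by species (vertical), over the 272 ENSONIT transcripts and the 308 Ldim_g genes called between Thalassoma and Coris, 1 point per library, without the 3 libraries left out. The non-cleaner Labrichthys (median 39.2% and 47.9%) lies with the cleaners Hemigymnus (27.9% and 42.9%) and Halichoeres (32.1% and 40.1%), between the ends that define the axis.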

How the data were processed

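The authors deposited, for each library, 2 tables of raw read counts (whole numbers, not normalized), on 26788 ENSONIT transcripts and 28134 Ldim_g genes. Per the submitters' processing notes, cutadapt 2.8, SAMtools and BWA were used, in roles that the notes leave out. Neither the reference nor the counter is named in the sources used here. Libraries were made by poly-dT priming and PCR, per the labels' protocols, with no mention of molecular identifiers, so counting intervals cover counting error only. The unnamed ENSONIT line (0 counts) and the 5 Ldim_g lines without a gene (95.7% of reads in the 18 libraries) entered neither library sizes nor tests. Both references served every species, so a transcript that differs more from them can lose reads in 1 species.

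Counts were fitted in R 4.3.3 with edgeR 4.0.16 (glmQLFit, TMM, filterByExpr with minimum count 10 and minimum total 15) over the 18 libraries, with species as the only term, and p-values were adjusted over all features tested in a set. CPM are counts scaled to 1000000 per library, over the tested features and with TMM unless stated. These features held 52.3% of ENSONIT and 68.0% of Ldim_g counts in the 18 libraries. 1 count in the median library stood for 51.7 and 43.8 CPM. The standard error is the size of the log2 fold change over the square root of F, and 95% intervals use the normal distribution. CPM of the other species were scaled together with these 18 in a set of 43 libraries. The scripts were tested on simulated counts. DESeq2 1.42.0, limma 3.58.1 (voom), other scalings, filters, sample choices and thinned counts were the alternatives. Thinning with the same features tested, and values over features well measured in each species, were chosen after seeing the data. No 2 libraries of a species were identical, and the highest chi-square p over pairs was 8.61e-09 in the ENSONIT and 0.00592 in the Ldim_g counts. Among features that passed and did not overlap, the 2 largest fold changes per direction were named and the next 10 were given by rank. The ranks singled out were chosen after their values were seen. The libraries, lists and tests were chosen with earlier results of these data known.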

Additional observations from a re-analysis of the deposited data

Results flagged for a closer look

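Single libraries were set apart from the others of their species, by a gap above Dixon's 95% critical value, in 9 of 60 groups of values, where chance gives about 1 in 20. Coris 10 accounted for 6 of them. It had 14800 ENSONIT counts (next lowest 26789), 4732 transcripts with a count (next 7183), 287241 reads in all (next 511825) and 2910 Ldim_g genes with a count (next 3746). Its correlation with the mean of the other Coris libraries was 0.863 in the ENSONIT set (next 0.939) and 0.910 in the Ldim_g set (next 0.949), across features, which are not independent replicates. Without Coris 10, 150 transcripts were higher and 144 lower in Thalassoma of 518 tested, and 175 and 162 of 506 genes.

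Thalassoma 8 had 34.8% of its reads aligned outside genes, where the next highest Thalassoma library had 32.9%. Coris 5 had 107 CPM of Ldim_g16990, or 2 counts, where the next highest Coris library had 53.1 CPM. Halichoeres 1 lay at 53.7% on the Ldim_g axis from Coris to Thalassoma, and the next Halichoeres library at 40.8%.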

How the results depend on the processing

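The 8 named features kept their direction and an adjusted p below 0.05 under every alternative that tested them (31 to 34 each). They had been picked for large differences without overlap in the same libraries, so this could hardly come out otherwise and is no separate support. Counts of calls moved mainly with the number of features tested. With no filter on low counts 989 ENSONIT transcripts were higher and 609 lower of 22776, and 856 and 731 of 12918 Ldim_g genes. A median of at least 1 CPM in both species gave 469 and 409 of 4889, and 479 and 440 of 2630. A mean of at least 5 counts gave 265 and 229 of 963, and 295 and 253 of 884. Thinning with the filter applied anew gave 52 and 55 of 202, and 75 and 73 of 237, with 17 and 20 transcripts and 20 and 34 genes that did not overlap. A minimum absolute log2 fold change of 1 left 46 and 51 transcripts, 66 and 79 genes, and 10 shared genes in the same and 19 in opposite directions with Hemigymnus against Labrichthys (6 and 7 transcripts). A fit over 43 libraries of 5 species gave 247 and 226 of 752 genes. With Thalassoma 4 kept, 21 transcripts and 31 genes lay wholly above Coris. DESeq2 called 140 and 129 transcripts, and limma-voom 134 and 134. Upper quartile scaling moved the median of all genes by 0.18 (log2) and gave 191 and 128. Leaving out each library gave 129 to 150 higher and 131 to 145 lower transcripts, and 159 to 189 and 145 to 162 genes. The share of the 10 most abundant transcripts was 0.133 percentage points lower in Thalassoma (-0.133, not past the threshold) and ran from -0.304 to 0.110, reversed without Coris 10. For the 10 most abundant Ldim_g genes the share was 0.605 percentage points higher in Thalassoma (exact permutation, adjusted p = 0.0137). With each library left out it ran from 0.522 to 0.727. The difference in transcripts with a count at equal depth ran from 78.7 to 138, past the threshold without Thalassoma 8.

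Sample numbers recur in both species, but the labels do not say that a number joins fish. Deviations of same-numbered libraries correlated at -0.047 to 0.176 in the ENSONIT set over 8 numbers, and each library's best match had its own number only for number 2, in both sets. With a replicate block on the number, over 16 libraries, 126 transcripts were higher and 126 lower of 483 (128 and 127 without the block), and 163 and 139 of 465 genes (162 and 138).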

Other observations

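The spread among fish of a species was of similar size in both, and somewhat larger in Coris over all 18 libraries. The biological coefficient of variation over the tested ENSONIT transcripts was 0.149 in Thalassoma and 0.183 in Coris, and the coefficient of variation was larger in Coris for 340 of 487 transcripts. In the Ldim_g set the biological coefficient was 0.155 and 0.158, and the coefficient of variation was larger in Coris for 279 of 462 genes. The median coefficient of variation was 23.0% in Thalassoma and 29.0% in Coris for transcripts, and 23.2% and 27.4% for genes. With Coris 10 left out and depth made equal, the biological coefficients were 0.144 and 0.158 for transcripts and 0.149 and 0.135 for genes, so the order of the 2 species was not the same in both sets. Both changes were made together, so the part of each cannot be told apart.

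Of the 22776 ENSONIT transcripts with a count in any of the 18 libraries, 4917 had counts in Thalassoma alone and 2089 in Coris alone, beside 15770 in both, with Thalassoma the deeper species. No tested transcript or gene was without counts in a whole species. Further libraries that were left out of the other species were placed on the same axes. The library labelled Halichoeres melanurus 2 lay at 102% (ENSONIT) and 98.7% (Ldim_g), at the Thalassoma end, and Hemigymnus melapterus 4 at 19.8% and 26.1%.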
